A study of Homo sapiens with 12 samples.

Results

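Each gene's response to induced TAL1 and LMO1 together was compared with the sum of its responses to either factor alone. The comparison used all 12 of the 12 RNA-seq libraries of the series, because each of the 6 groups enters it. The cells were HPB-ALL, an established human line of T-cell acute lymphoblastic leukaemia (T-ALL), and lentiviral constructs placed a transgene in them under the control of doxycycline. A TAL1 line (T5), an LMO1 line (L4) and a TAL1/LMO1 line (C25) were each sampled with doxycycline (DOX) and with DMSO, with 2 libraries per group. All 6 groups had been infected and drug-selected and were grown in medium with tetracycline-free serum. The sources used here do not say whether a line was a single clone, how much doxycycline was given or for how long. There was no line with doxycycline and without a transgene, so a change that doxycycline makes in every line enters the departure once with a minus sign.

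TAL1, a transcription factor of the basic helix-loop-helix class, is switched on in many cases of T-ALL. It pairs with E proteins (TCF3, TCF4 and TCF12) on short DNA motifs called E-boxes, and the LIM-domain protein LMO1, which does not bind DNA itself, links such pairs to LDB1 and to other DNA-bound factors such as GATA3. E proteins working without TAL1 drive the genes of the developing thymocyte, among them the pre-T-cell receptor and the recombinases, and RUNX1, GATA3, MYB and ETS1 occupy many of the sites that TAL1 occupies in T-ALL.

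A response was the log2 ratio of doxycycline to DMSO within a line, fitted on counts. The departure of a gene was its TAL1/LMO1 response minus its TAL1 response minus its LMO1 response, so a departure of 0 means that the fold changes of the single lines multiply to that of the line with both. Calls rest on edgeR's quasi-likelihood F test over 16287 genes, with Benjamini-Hochberg adjustment and a threshold of 0.05. Of these, 2172 were called above the sum (13.3%) and 3483 below it (21.4%), with a median departure over all genes of -0.06 and a range from -1.30 to 1.36 between the 5th and 95th percentiles. With a departure of at least 1 in size, 640 genes were above (3.93%) and 752 below (4.62%). Levels are given in CPM, counts scaled to the same library size. No source says that replicates were separate cultures, so the p-values may reflect only technical spread.

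The promoters of 4 of the genes that departed most are shown first, because TAL1 and its partners act through short motifs. They are the 250 bases before the RefSeq start, on the gene's strand, in GRCh38.p14, a later build than the one the authors counted on. Capitals mark the E-box CANNTG, the GATA motif AGATAA or the RUNX motif TGTGGT, each searched on both strands. ALDH1A2 (chr15:58065712-58065961, minus strand) and EPAS1 (chr2:46297157-46297406, plus strand) lay above the sum. DOCK1 (chr10:126905178-126905427, plus strand) and SERTAD4 (chr1:210232546-210232795, plus strand) lay below it.
ALDH1A2: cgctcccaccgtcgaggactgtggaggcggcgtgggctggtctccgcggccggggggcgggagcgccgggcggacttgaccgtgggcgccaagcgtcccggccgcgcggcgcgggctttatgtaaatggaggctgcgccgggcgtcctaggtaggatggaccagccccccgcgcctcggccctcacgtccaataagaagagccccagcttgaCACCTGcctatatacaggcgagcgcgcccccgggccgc
EPAS1: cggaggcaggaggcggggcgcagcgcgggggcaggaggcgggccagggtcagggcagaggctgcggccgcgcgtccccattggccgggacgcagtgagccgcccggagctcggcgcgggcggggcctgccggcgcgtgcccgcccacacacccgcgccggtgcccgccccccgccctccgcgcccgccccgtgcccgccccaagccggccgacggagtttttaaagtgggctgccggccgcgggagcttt
DOCK1: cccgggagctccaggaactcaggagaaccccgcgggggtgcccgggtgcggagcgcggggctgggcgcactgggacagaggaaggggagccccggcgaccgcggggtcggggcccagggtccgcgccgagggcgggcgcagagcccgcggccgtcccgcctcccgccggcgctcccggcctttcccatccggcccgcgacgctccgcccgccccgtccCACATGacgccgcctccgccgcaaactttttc
SERTAD4: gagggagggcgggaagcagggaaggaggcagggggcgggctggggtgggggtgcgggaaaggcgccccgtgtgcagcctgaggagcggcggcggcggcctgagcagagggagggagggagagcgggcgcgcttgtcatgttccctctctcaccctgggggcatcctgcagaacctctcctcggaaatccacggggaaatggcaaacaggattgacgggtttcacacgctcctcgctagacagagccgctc
ALDH1A2 and DOCK1 held 1 E-box each, and the windows of EPAS1 and SERTAD4 held none of these letters. Across the coding genes with a departure of at least 1, CANNTG was in 54.7% of 380 promoters of genes above, in 53.9% of 432 promoters of genes below, in 53.6% of 10033 promoters of all coding genes tested and in 62.2% of all 27305 promoters in the table. The E-box form CACGTG, read by MYC with MAX, was in 7.11% above, 10.6% below, 8.92% of the coding genes tested and 6.49% of all promoters. CAGATG was in 8.68% above, 7.64% below, 7.94% of the coding genes tested and 12.2% of all promoters, and CAGGTG in 16.8%, 16.9%, 15.7% and 17.5%. AGATAA was in 6.32% above, 5.09% below, 4.5% of the coding genes tested and 9.37% of all promoters, and TGTGGT in 9.21%, 8.33%, 7.85% and 10.9%. The last 3 E-box forms are also counted in CANNTG.

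The transgenes themselves were not delivered at matched doses. TAL1 stood at 4.06 and 3.88 CPM in the 2 DMSO libraries of the TAL1 line and at 35.5 and 42.9 CPM with doxycycline, against 3.08 and 7.34 CPM (DMSO) and 932 and 868 CPM (DOX) in the TAL1/LMO1 line. In the LMO1 line, which does not carry it, TAL1 was at 0.262 and 0 CPM with DMSO and 0.132 and 0.130 CPM with doxycycline. LMO1 stood at 3.93 and 1.76 CPM in the LMO1 line with DMSO and at 239.5 and 212 CPM with doxycycline, against 0.449 and 6.89 CPM (DMSO) and 1501 and 1576 CPM (DOX) in the TAL1/LMO1 line. Each transgene was therefore higher in both induced libraries of the TAL1/LMO1 line than in any library of the single line, and the construct's transcripts cannot be told apart from those of the native gene. The departure of TAL1 was 4.13 (SE 2.91, adjusted p = 0.346) and that of LMO1 2.67 (SE 4.07, adjusted p = 0.685), both with a few counts in the line that lacks the transgene, and neither was called in edgeR's test. DESeq2 and limma-voom called the departure of TAL1, at 4.16 (adjusted p = 0.00473) and 3.52 (adjusted p = 0.0177), and edgeR called it without either DMSO library of the TAL1/LMO1 line, at 3.62 (adjusted p = 0.0148) without replicate 1 and 4.87 (adjusted p = 0.00173) without replicate 2. LMO1 was called without replicate 2 of those libraries, at 5.66 (adjusted p = 0.0159). Leaving out 1 library at a time moved the departure of TAL1 between 0.002 and 5.08 and that of LMO1 between 1.19 and 5.66. A departure therefore compares a line with more TAL1 and more LMO1 with lines that had less, and the part of dose and the part of the combination cannot be told apart.

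The single responses were small and the TAL1/LMO1 response was wide. The TAL1 response was called for 299 genes (1.84%) and the LMO1 response for 349 (2.14%), while the TAL1/LMO1 response was called for 9812 (60.2%). These calls share libraries with the departure. Of the 2172 genes above the sum, 2033 (93.6%) had neither single response called, and of the 3483 below it 3203 (92.0%) had neither. Over all genes tested, 15687 (96.3%) had neither single response called, so these shares are close to the background and slightly under it. The TAL1/LMO1 response also exceeded each single response, with both differences called, for 2462 genes (15.1%) and lay below each for 3732 (22.9%). Of the genes above the sum 2005 were among the former, and of the genes below it 3238 were among the latter.

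**Figure D1:**
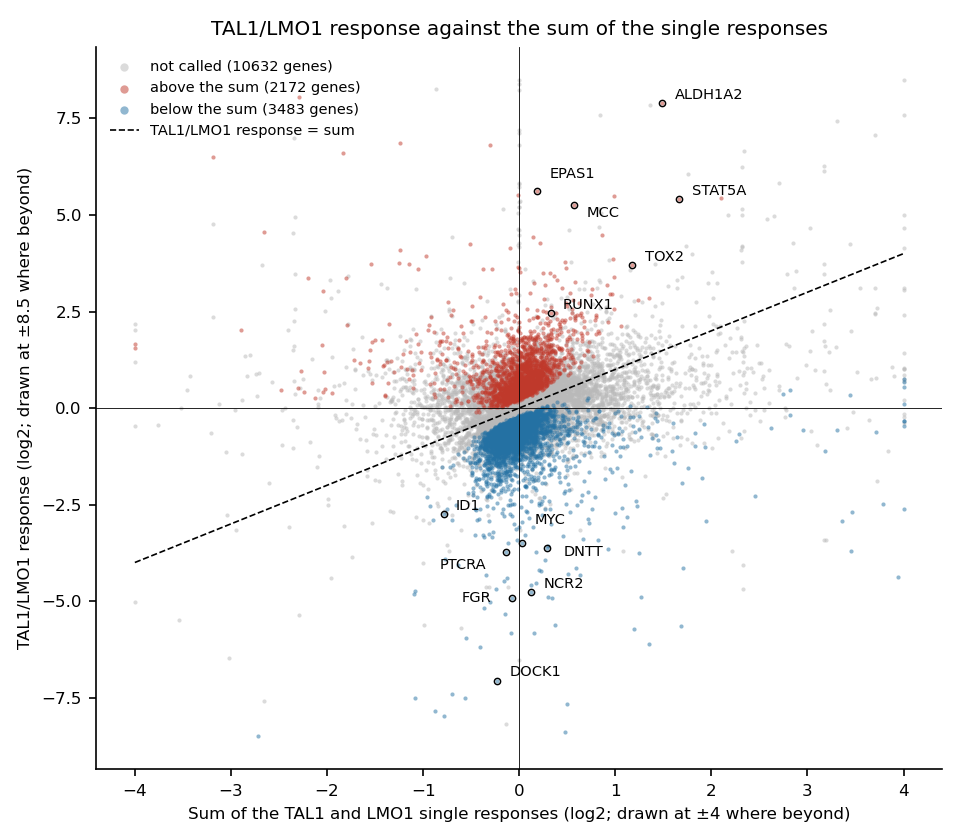
Each point is 1 of the 16287 genes tested, with the sum of its TAL1 and LMO1 responses (log2) on the x axis and its TAL1/LMO1 response (log2) on the y axis; the dashed line marks equality. The genes called above (2172) and below (3483) lie in a band around a sum of 0 that is far taller than it is wide.

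Classes were told apart by the signs of the fitted values. In one class, the TAL1/LMO1 response had the sign of the sum and was larger in size (beyond the sum). It held 1183 of the genes above (54.5%) and 2107 of the genes below (60.5%), with median TAL1/LMO1 responses of 0.82 and -0.72 against median sums of 0.13 and -0.13. In another, the TAL1/LMO1 response had the other sign (opposite to the sum), and it held 986 genes above (45.4%) and 1354 below (38.9%), with median TAL1/LMO1 responses of 0.52 and -0.50. In the last, the response had the same sign but was smaller (short of the sum), and it held 3 genes above and 22 below. The class opposite to the sum was largely one of sums near 0, with a median sum of -0.13 for the genes above and 0.13 for the genes below. In this class, STAM, an adaptor that sorts receptors for degradation, had responses of 0.0059 in the TAL1 line, -0.055 in the LMO1 line and 2.41 in the TAL1/LMO1 line. PRKAB1, a subunit of the energy sensor AMPK, had -0.047, -0.036 and 2.96, and both departed upward, by 2.46 (SE 0.12) and 3.04 (SE 0.10). A response short of the sum was the rarest class in either direction. Of all genes tested, 96.3% had neither single response called. A sum near 0 leaves little room for a call of this class, so its rarity says little about how the factors combine. The split between the other classes likewise rests largely on the sign of sums near 0.

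Genes called in both single lines are described next. They were picked by the single responses that the departure subtracts. No line had doxycycline without a transgene, so a response to doxycycline itself cannot be told apart here from a response to either factor. There were 48 genes with both single responses called, of which 14 were above the sum, 26 below and 8 not called. Over all genes tested, 13.3% were above and 21.4% below. Of the 4072 genes with the highest mean level, 17.9% were above and 43.0% below. The part of abundance in the calls of the 48 genes was not tested. In 32 of the 48 the single responses had the same sign. Of these 32, 22 went beyond the sum, 1 was opposite to it, 1 short of it and 8 were not called. ITGA4, the alpha-4 integrin of lymphocytes, showed the commonest pattern. Its levels were 485 and 489.5 CPM in the TAL1 line with DMSO and 592 and 590.2 CPM with doxycycline, 440 and 431 CPM (DMSO) and 545 and 556 CPM (DOX) in the LMO1 line, and 489.7 and 494 CPM (DMSO) and 3348 and 3140 CPM (DOX) in the TAL1/LMO1 line. Each single line rose a little, with no overlap between treatments, and the line with both rose far more. On the log2 scale the single responses of 0.28 and 0.34 add to 0.62, the TAL1/LMO1 response was 2.72, and the departure was 2.10 (SE 0.075, edgeR adjusted p = 2.35e-37).

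Signal transducers followed ITGA4. STAT3, a transcription factor activated by cytokine receptors, had responses of 0.24 and 0.24 in the single lines and 2.29 in the line with both, and STAT5B 0.18, 0.28 and 2.22. FMN1, an actin-nucleating formin, had 0.52, 0.45 and 3.87. CERKL, the gene next to ITGA4, had 0.34, 0.27 and 2.41. All 4 rose in each single line and were called above the sum. Among genes that fell in each line, ODC1, the enzyme that starts polyamine synthesis, had -0.15, -0.26 and -1.83, the chaperone HSP90AB1 -0.16, -0.17 and -1.58, and the glycolytic enzyme ENO1 -0.17, -0.32 and -1.66. These 3 were called below the sum, as were HK2 and GAPDH of glycolysis and the ribosomal protein genes RPL23, RPL36, RPL19 and RPL31, which also fell in each single line. FMN1, CERKL, HK2, GAPDH and the 4 ribosomal protein genes were chosen for mention after their values were seen.

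The other 16 of the 48 genes moved in opposite directions in the single lines. JARID2, a subunit of the Polycomb complex, rose by 0.19 in the TAL1 line, was -0.36 in the LMO1 line, and rose by 1.23 with both. NOTCH3, a receptor of the NOTCH family, had -0.20 and 0.35 in the single lines and -1.79 with both. Its libraries stood at 431 and 417.5 CPM (DMSO) and 373 and 367 CPM (DOX) in the TAL1 line, 589 and 589 CPM (DMSO) and 752 and 749.6 CPM (DOX) in the LMO1 line, and 359.7 and 385 CPM (DMSO) and 107 and 108 CPM (DOX) in the TAL1/LMO1 line. SLC29A1, a nucleoside transporter, had -0.17 and 0.24 and then -2.28. In these 3 genes the sign of the TAL1/LMO1 response was that of the TAL1 line. It was that of the LMO1 line in IGLL1, a surrogate light chain gene, with -0.38, 0.76 and 2.47, which was named after its values were seen. The sign was also that of the LMO1 line in TLR5, RGPD3, MYO7B, HIVEP3 and CFTR. In the rest of the 16 it was that of the TAL1 line.

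The 8 genes with both single responses called and no call of departure included CPB2, FLI1, DYNLL1, ATP2B4, SRGN, MYBL2 and NFAT5. A missing call does not show additivity, so the 95% interval of the departure is given. For MYBL2, a cell-cycle transcription factor, the responses were -0.18, -0.15 and -0.38, and the interval ran from -0.20 to 0.11. For FLI1, an ETS factor, they were 0.19, 0.21 and 0.54, with an interval from -0.054 to 0.33, and for the calcium pump ATP2B4 0.49, 0.22 and 0.84, with -0.075 to 0.34. SRGN, the granule proteoglycan serglycin, rose by 0.45, 0.81 and 1.11, with -0.63 to 0.32. The interval of MYBL2 was thus among the narrowest, and those of SRGN and CPB2 (-0.25 to 1.94) were wide.

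**Figure D2:**
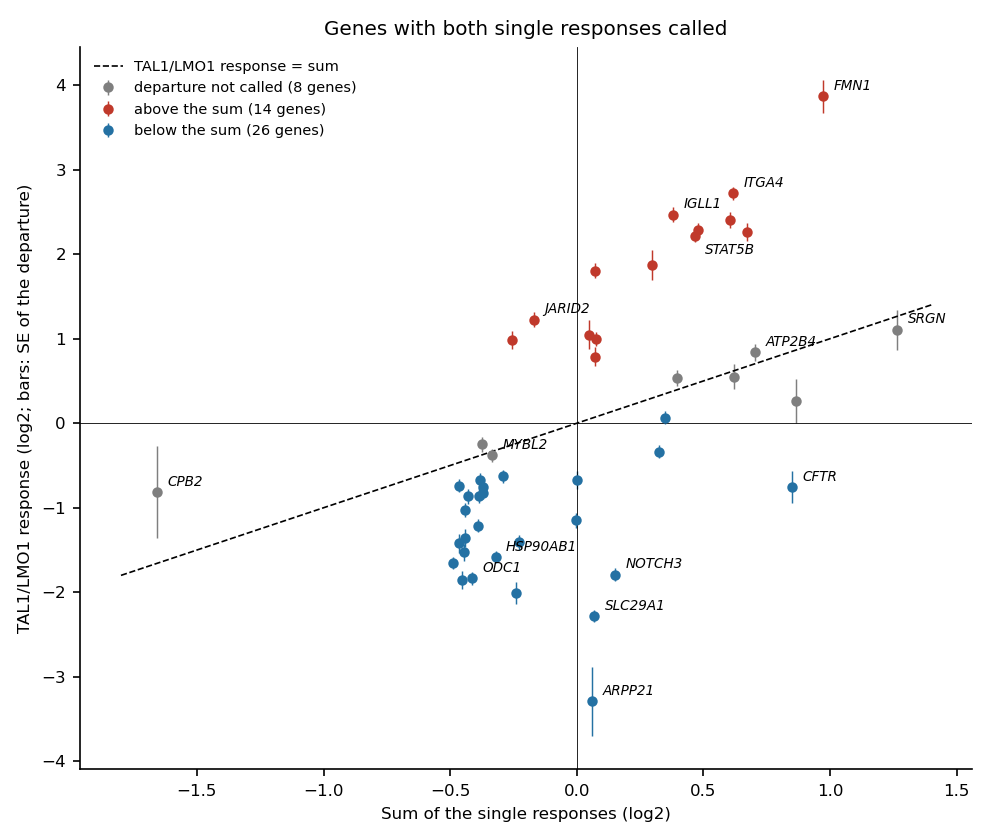
The 48 genes with both single responses called are plotted by the sum of those responses (x axis, log2) and the TAL1/LMO1 response (y axis, log2), with bars for the SE of the departure. The 8 genes without a call of departure lie along the dashed line of equality or have long bars, and the 40 others lie on either side of it.

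The class short of the sum had too few genes for a theme. STK17B, a kinase of the DRAK family, had responses of 0.70 in the TAL1 line, 0.020 in the LMO1 line and 0.26 in the TAL1/LMO1 line, and its departure was -0.46 (adjusted p = 2.12e-04). HS6ST1, a heparan sulfate enzyme, had 0.19, 0.15 and 0.066. MDM4, a p53 inhibitor, had 0.13, 0.26 and 0.15. The 3 genes above the sum in this class, FABP5, RPL36AL and SAP30, fell in both single lines by fitted value and less so with both. These calls were fragile. With 1 library left out in turn, 5 of the 25 genes of this class kept their call in all 12 fits, STK17B and HS6ST1 among them, while MDM4 lost it in 7 of the 12, FABP5 in 5 and RPL36AL and SAP30 in 8 each. Of the 22 genes below, 7 had under 10 counts in some group. PTPRF, a receptor phosphatase, was one of these 7, at 0.197 and 0.129 CPM (DMSO) and 1.51 and 0.761 CPM (DOX) in the TAL1 line and 111 and 117 CPM (DMSO) and 116 and 114 CPM (DOX) in the LMO1 line. In the replicate 1 doxycycline library of the TAL1 line, 9 genes that had at least 50 CPM in the LMO1 line and at most 1% of that in the TAL1 line with DMSO exceeded their DMSO level by a median of 1.53% of their LMO1-line level, against 0.409% in replicate 2. With that share taken out of the counts, PTPRF moved from -2.37 to -0.85 (adjusted p = 0.459), 4 of the 7 stayed below the sum, and all 15 of the others did. None of these genes met the rule for named genes, and all were chosen after their values were seen.

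In the genes with at least 10 counts in every group that departed furthest above the sum, the induced TAL1/LMO1 libraries stood above the 10 others. ALDH1A2, which makes retinoic acid and is a known target of TAL1 in T-ALL, was at 1.38 and 1.88 CPM (DMSO) and 1.31 and 1.52 CPM (DOX) in the TAL1 line, 4.19 and 3.91 CPM (DMSO) and 13.1 and 13.1 CPM (DOX) in the LMO1 line, and 0.834 and 3.41 CPM (DMSO) and 493.5 and 524 CPM (DOX) in the TAL1/LMO1 line. Of the single lines the LMO1 line alone had no overlap between treatments, and the induced TAL1/LMO1 libraries were far above all 10 others. Its departure was 6.41 (SE 0.69, edgeR adjusted p = 7.69e-06), and it lay between 5.72 and 7.74 with 1 library left out. EPAS1, the hypoxia-responsive factor HIF-2 alpha, was at 10.6 and 10.2 CPM (DMSO) and 11.98 and 11.98 CPM (DOX) in the TAL1 line, 2.36 and 2.41 CPM (DMSO) and 2.51 and 2.21 CPM (DOX) in the LMO1 line, and 2.44 and 1.87 CPM (DMSO) and 106 and 108 CPM (DOX) in the TAL1/LMO1 line, a departure of 5.45 (SE 0.32, adjusted p = 2.52e-24). The single lines differed from each other already with DMSO, and neither came near the induced TAL1/LMO1 line. STAT5A, the partner of STAT5B, was at 2.29 and 2.72 CPM (DMSO) and 3.14 and 3.55 CPM (DOX), 0.655 and 0.522 CPM (DMSO) and 1.32 and 1.495 CPM (DOX), and 0.834 and 1.29 CPM (DMSO) and 44.5 and 46.2 CPM (DOX) in the same order, a departure of 3.75 (SE 0.57, adjusted p = 1.06e-07).

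Kinases, an exchange factor and a scaffold were among the rest of the 15 largest. The Tec-family kinases TXK and TEC departed by 4.87 (SE 0.56) and 3.88 (SE 0.27), and VAV3, an exchange factor for small GTPases, by 4.75 (SE 0.55). TEC stood between 4.16 and 9.08 CPM in the 10 other libraries and at 113 and 103 CPM in the induced TAL1/LMO1 libraries. The scaffold IQGAP2 departed by 5.01, MCC by 4.69, the interferon-inducible EPSTI1 by 4.51, the syntaxin STX3 by 4.29 and the zinc-finger protein ZNF521 by 3.65. RGS9, a brake on G-protein signalling, departed by 3.62 (SE 0.80), the cyclic AMP phosphodiesterase PDE4A by 3.53 (SE 0.67) and ITIH2 by 3.52 (SE 0.57). ITIH2 was the highest of the genes named here in the TAL1/LMO1 line with DMSO, at 37.5 and 40.04 CPM, against 0.721 and 1.16 CPM in the TAL1 line and 0.851 and 0.652 CPM in the LMO1 line.

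The largest departures below the sum included genes that fell steeply in the TAL1/LMO1 line and changed little in the single lines. DOCK1, an activator of the GTPase RAC, was at 976.5 and 937 CPM (DMSO) and 857 and 819 CPM (DOX) in the TAL1 line, 1810 and 1801 CPM (DMSO) and 1813 and 1700 CPM (DOX) in the LMO1 line, and 1267 and 1235 CPM (DMSO) and 9.44 and 9.34 CPM (DOX) in the TAL1/LMO1 line. It was among the abundant transcripts of 10 libraries and almost gone from the other two. Its departure of -6.83 (SE 0.093, edgeR adjusted p = 3.60e-65) lay between -6.88 and -6.79 with 1 library left out. MYC, the growth-promoting transcription factor, was at 695.5 and 710.5 CPM (DMSO) and 669 and 663 CPM (DOX) in the TAL1 line, 605 and 634 CPM (DMSO) and 661.5 and 676.5 CPM (DOX) in the LMO1 line, and 540.4 and 577 CPM (DMSO) and 48.9 and 50.7 CPM (DOX) in the TAL1/LMO1 line. The 10 other libraries thus spanned 540.4 to 710.5 CPM, and the departure was -3.52 (SE 0.082, adjusted p = 4.27e-49). FGR, a kinase of the SRC family, differed strongly between lines with DMSO, at 136 and 145 CPM, 6.02 and 5.801 CPM and 47.8 and 44.7 CPM in the TAL1, LMO1 and TAL1/LMO1 lines, and with doxycycline at 123 and 130.4 CPM, 6.53 and 5.91 CPM and 1.62 and 1.41 CPM. Its departure was -4.85 (SE 0.26, adjusted p = 2.31e-29).

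Other genes among the 15 largest below were NCR2, which encodes the natural killer receptor NKp44, at -4.88 (SE 0.29), the adhesion receptor GPR56 at -4.81 (SE 0.40) and the hexokinase HKDC1 at -4.44 (SE 0.40). SERTAD4 departed by -5.26, PGPEP1L by -4.71, OPALIN by -4.06, MFAP4 by -3.94, FXYD2 by -3.71 and DSCAML1 by -3.62. In SERTAD4 and MFAP4 the LMO1 response was positive, at 0.60 and 1.16, while the TAL1/LMO1 response was -4.93 and -2.82. SERTAD4 is the least certain of these in size, since it ranged from -6.81 to -4.55 with 1 library left out.

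The lists described next are read against the background of 13.3% above and 21.4% below. Of 17 tested genes described as activated by the TAL1 complex in T-ALL, 11 were above the sum and 0 below, with a median departure of 0.63 (0.69 without the member with 3 or fewer counts in a group) against -0.06 over all genes. RUNX1, a partner and target of TAL1, was at 229.9 and 215 CPM (DMSO) and 260.3 and 245 CPM (DOX) in the TAL1 line, 198 and 192 CPM (DMSO) and 213 and 217 CPM (DOX) in the LMO1 line, and 199 and 217 CPM (DMSO) and 1133 and 1148 CPM (DOX) in the TAL1/LMO1 line, a departure of 2.13 (SE 0.084, edgeR adjusted p = 1.28e-34). The pseudokinase TRIB2 departed by 2.35 (SE 0.10), from a range of 53.6 to 63.8 CPM in the 10 other libraries to 324 and 344 CPM. MYB, the progenitor transcription factor, departed by 1.14 (SE 0.080) and the corepressor CBFA2T3 by 0.75 (SE 0.083). Among 15 tested partners of TAL1 other than LMO1, 7 were above and 3 below. The partners share 6 genes with the list of activated genes (CBFA2T3, ETS1, GATA3, MYB, RUNX1 and TCF12), so the counts of these lists overlap. LYL1, the closest relative of TAL1, had the largest called departure of the partners, 2.37 (SE 0.21, edgeR adjusted p = 6.17e-16). LYL1 was at 14.2 and 16.6 CPM in the TAL1/LMO1 line with DMSO and at 81.4 and 75.9 CPM with doxycycline.

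E proteins, their inhibitors and their thymocyte targets lay mostly below the sum. Of 7 tested E proteins and inhibitors, 6 were below and 1 above, with a median of -1.03. The E protein TCF3 departed by -0.55 (SE 0.075), with 791 and 817 CPM in the TAL1/LMO1 line with DMSO, 536 and 571 CPM with doxycycline and 710.5 to 817 CPM over all 10 other libraries. The inhibitors ID1 and ID3, which keep E proteins off DNA, departed by -1.97 (SE 0.29) and -1.52 (SE 0.18), and HES1 by -1.10 (SE 0.10). ID1 was at 22.9 and 22.9 CPM (DMSO) and 14.86 and 14.97 CPM (DOX) in the TAL1 line, 16.96 and 20.1 CPM (DMSO) and 16.2 and 16.8 CPM (DOX) in the LMO1 line, and 6.73 and 7.53 CPM (DMSO) and 0.994 and 1.11 CPM (DOX) in the TAL1/LMO1 line. It was thus lower with doxycycline in the TAL1 line too, with no overlap.

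Of 20 tested E-protein targets, 14 were below and 4 above (median -1.12), and of 18 cortical thymocyte genes 15 were below and 2 above (median -1.21). The lists share members. DNTT, the terminal transferase that adds bases at receptor gene joints, was at 170.2 and 171.5 CPM (DMSO) and 160.5 and 159 CPM (DOX) in the TAL1 line, 66.7 and 59.4 CPM (DMSO) and 84.2 and 80.0 CPM (DOX) in the LMO1 line, and 375 and 366 CPM (DMSO) and 31.4 and 28.6 CPM (DOX) in the TAL1/LMO1 line, a departure of -3.91 (SE 0.10, edgeR adjusted p = 4.04e-46). The line with both had the most DNTT with DMSO and the least with doxycycline. PTCRA, the pre-T-cell receptor alpha chain, was at 10.9 and 10.7 CPM (DMSO) and 9.295 and 7.93 CPM (DOX), 64.8 and 73.01 CPM (DMSO) and 75.6 and 81.2 CPM (DOX), and 21.1 and 22.8 CPM (DMSO) and 1.55 and 1.72 CPM (DOX) in the same order, a departure of -3.60 (SE 0.24, adjusted p = 8.60e-23). RAG2, a recombinase subunit, was at 2.62 and 3.24 CPM (DMSO) and 5.17 and 3.42 CPM (DOX), 239.5 and 242 CPM (DMSO) and 218 and 233 CPM (DOX), and 27.3 and 25.8 CPM (DMSO) and 2.795 and 2.52 CPM (DOX), a departure of -3.77 (SE 0.26, adjusted p = 2.28e-21). For RAG2 the baselines were far apart, so its induced TAL1/LMO1 libraries were as low as the TAL1 line's DMSO libraries. The lipid-presenting CD1E and CD1A departed by -1.84 and -1.62, with LMO1 responses of 0.29 and 0.77 and TAL1/LMO1 responses of -1.59 and -0.95. A lower level in a bulk library can come from fewer cells that express a gene or from less RNA per cell, and these cannot be told apart.

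NOTCH genes overlapped this pattern. Of 21 tested receptors and targets, 13 were below and 2 above, with a median of -1.10 (-1.07 without the member with 3 or fewer counts in a group). CR2, the complement receptor that is both an E-protein and a NOTCH target in the lists, departed by -2.88 (SE 0.094), from 143 and 139 CPM to 23.5 and 22.5 CPM in the TAL1/LMO1 line against 320.5 and 316 CPM to 335 and 341 CPM in the TAL1 line and 217 and 212 CPM to 254 and 233 CPM in the LMO1 line. IL7R, the interleukin-7 receptor, departed by -2.05 (SE 0.14), and NOTCH3 by -1.94 (SE 0.079). MYC and PTCRA, given above, are also on this list, and TRIB2 was one of the 2 genes above.

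**Figure D3:**
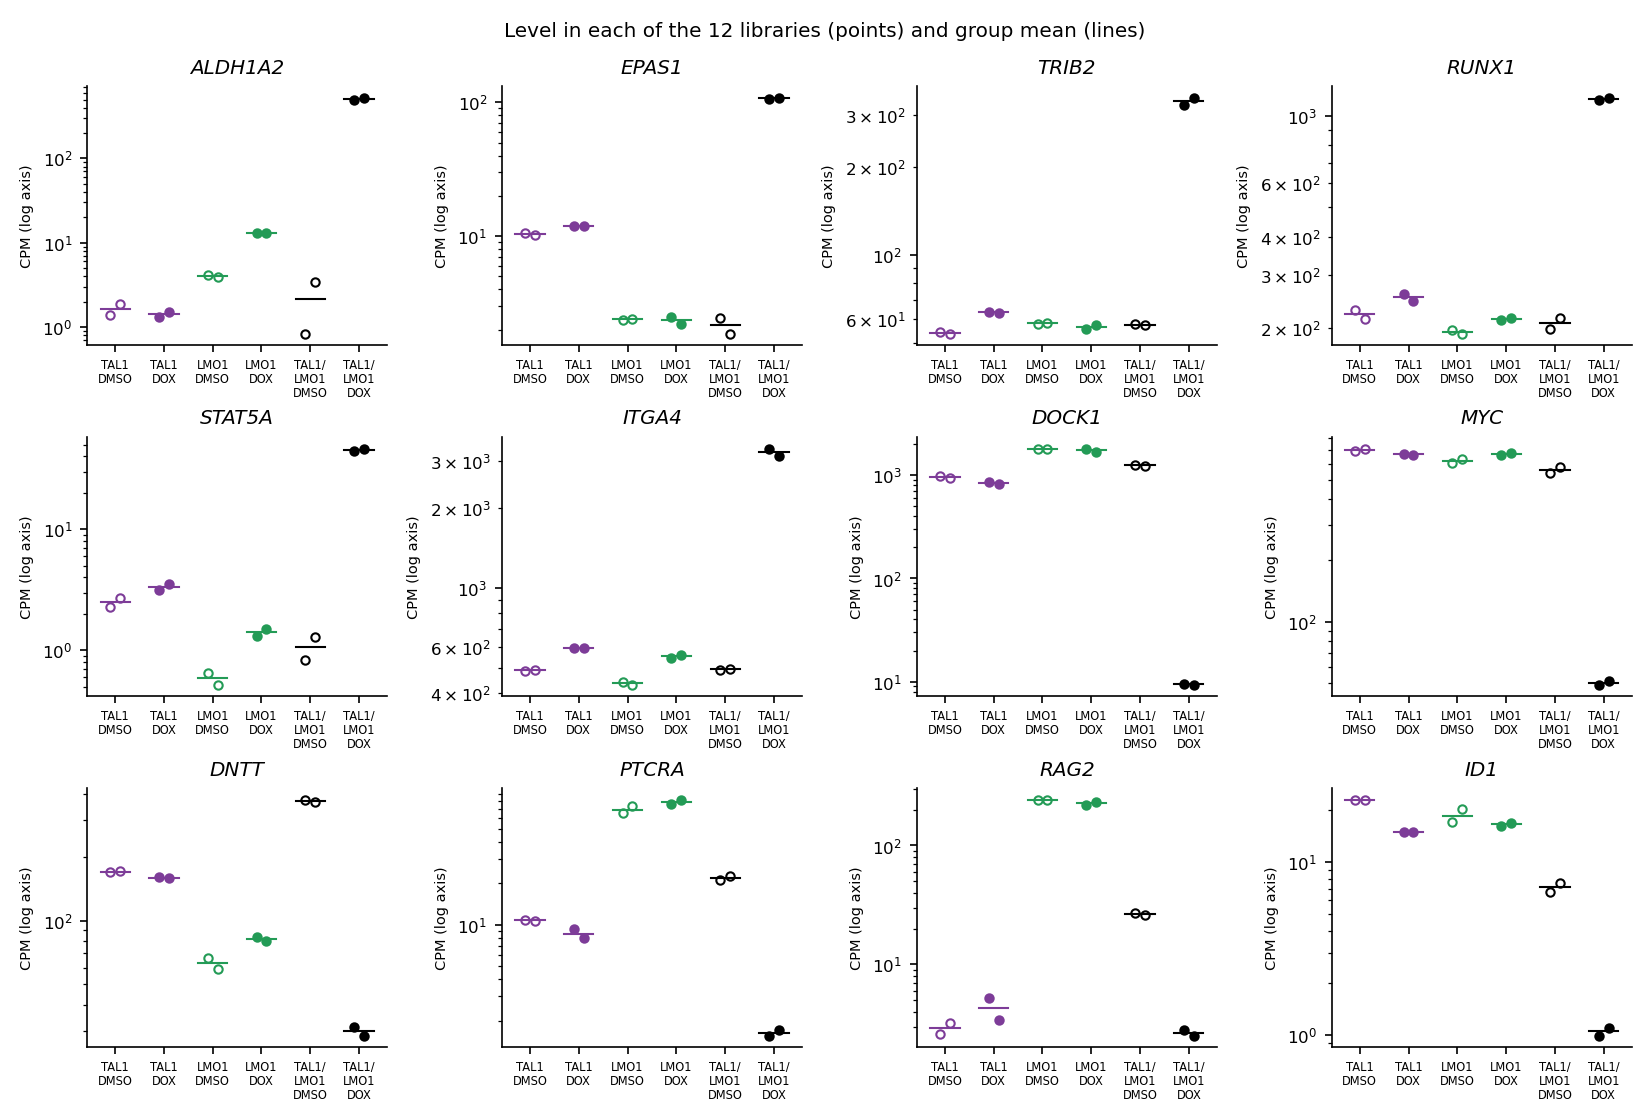
Levels of 12 genes in CPM (log axis) in each of the 12 libraries, open points for DMSO and filled points for doxycycline, with a line at the mean of the 2 libraries of a group. In ALDH1A2, EPAS1, TRIB2, RUNX1, STAT5A and ITGA4 the induced TAL1/LMO1 libraries lie above the 10 others, and in DOCK1, MYC, DNTT, PTCRA, RAG2 and ID1 they lie below or at the lowest of them.

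Most members of the following lists of growth genes were below the sum, by smaller amounts. Of 36 nucleolar factors and MYC targets, 35 were below (median -1.06), of 25 genes of nucleotide synthesis 21 (median -0.79), of 23 chaperones 21 (median -0.68) and of 50 ribosomal protein genes 44 (median -0.51), with 0 above in each. All 29 mitosis genes were below (median -0.47), and so were 26 of 35 DNA replication genes (median -0.47), 27 of 34 mitochondrial ribosome genes (median -0.54) and 31 of 45 respiratory chain genes (median -0.42), with 1 gene above in each of the mitochondrial lists. The spermidine synthase SRM departed by -1.71 (SE 0.095), from 162 and 172 to 41.2 and 44.04 CPM in the TAL1/LMO1 line, with TAL1 and LMO1 responses of -0.12 and -0.14. PAICS of purine synthesis departed by -1.70 (SE 0.079), the nucleoside diphosphate kinase NME1 by -2.15 (SE 0.13), the helicase DDX21 by -1.59 (SE 0.084) and the mitochondrial chaperonin HSPD1 by -1.19 (SE 0.077). ADA, adenosine deaminase, was outside these lists and went from 839 and 895 CPM to 143 and 142 CPM, a departure of -2.44 (SE 0.076). The checkpoint kinase BUB1B departed by -1.10 (SE 0.085), the mitotic kinase PLK1 by -0.62 (SE 0.080) and the helicase subunit MCM2 by -0.70 (SE 0.079). Single responses of these lists were small and mostly negative, with list medians from -0.14 to -0.07 in the TAL1 line and from -0.15 to -0.07 in the LMO1 line, against -0.57 to -1.31 in the TAL1/LMO1 line.

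Abundance moved with direction over all genes. Of the 4072 genes with the highest mean level, 17.9% were above and 43.0% below, whereas of the 4072 genes with a mean between 2.15 and 19.9 CPM 14.1% were above and 12.9% below. Growth genes are among the abundant ones, and the part of abundance in their counts was not tested. Protein-coding genes were above in 15.7% and below in 25.7%, and long noncoding genes in 6.15% and 7.93%.

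Genes of cytokine signalling, resting lymphocytes and lysosomes leaned the other way. Of 23 tested STAT pathway genes, 12 were above and 3 below (median 0.49), of 24 cytokine receptors 11 and 3, of 20 NF-kappaB factors 9 and 2, and of 27 calcium and potassium signalling genes 11 and 6. BCL6, a transcriptional repressor, departed by 1.56 (SE 0.14), the kinase JAK1 by 1.10 (SE 0.086), the shared receptor chain IL6ST by 1.44 (SE 0.19), the NF-kappaB subunit REL by 1.49 (SE 0.15) and the kinase PRKCH by 1.44 (SE 0.078). Members below the sum included FLT3 (-2.39), IL7R (-2.05) and IL15RA (-1.70) of the cytokine receptors. LTB (-3.10) and BIRC3 (-0.92) of the NF-kappaB list and PRKCA (-0.80) of the calcium list were also below. BCL6 stood at 47.4 and 47.2 CPM with DMSO and 46.02 and 47.4 CPM with doxycycline in the TAL1 line, at 14.2 and 16.8 CPM (DMSO) and 14.4 and 14.4 CPM (DOX) in the LMO1 line, and at 39.4 and 41.3 CPM (DMSO) and 106 and 113 CPM (DOX) in the line with both. Of 17 quiescence factors, 9 were above and 3 below (median 0.34), among them the antiproliferative BTG1 at 1.82 (SE 0.11), the PI3-kinase inhibitor PIK3IP1 at 2.18 (SE 0.27) and FOXO3 at 0.90 (SE 0.11), while IL7R on the same list was below. Of 36 lysosome and autophagy genes, 18 were above and 2 below (median 0.34), such as the protease TPP1 at 0.77 (SE 0.098) and the autophagy receptor SQSTM1 at 0.66 (SE 0.11), with PSAP below at -0.97 (SE 0.075).

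**Figure D4:**
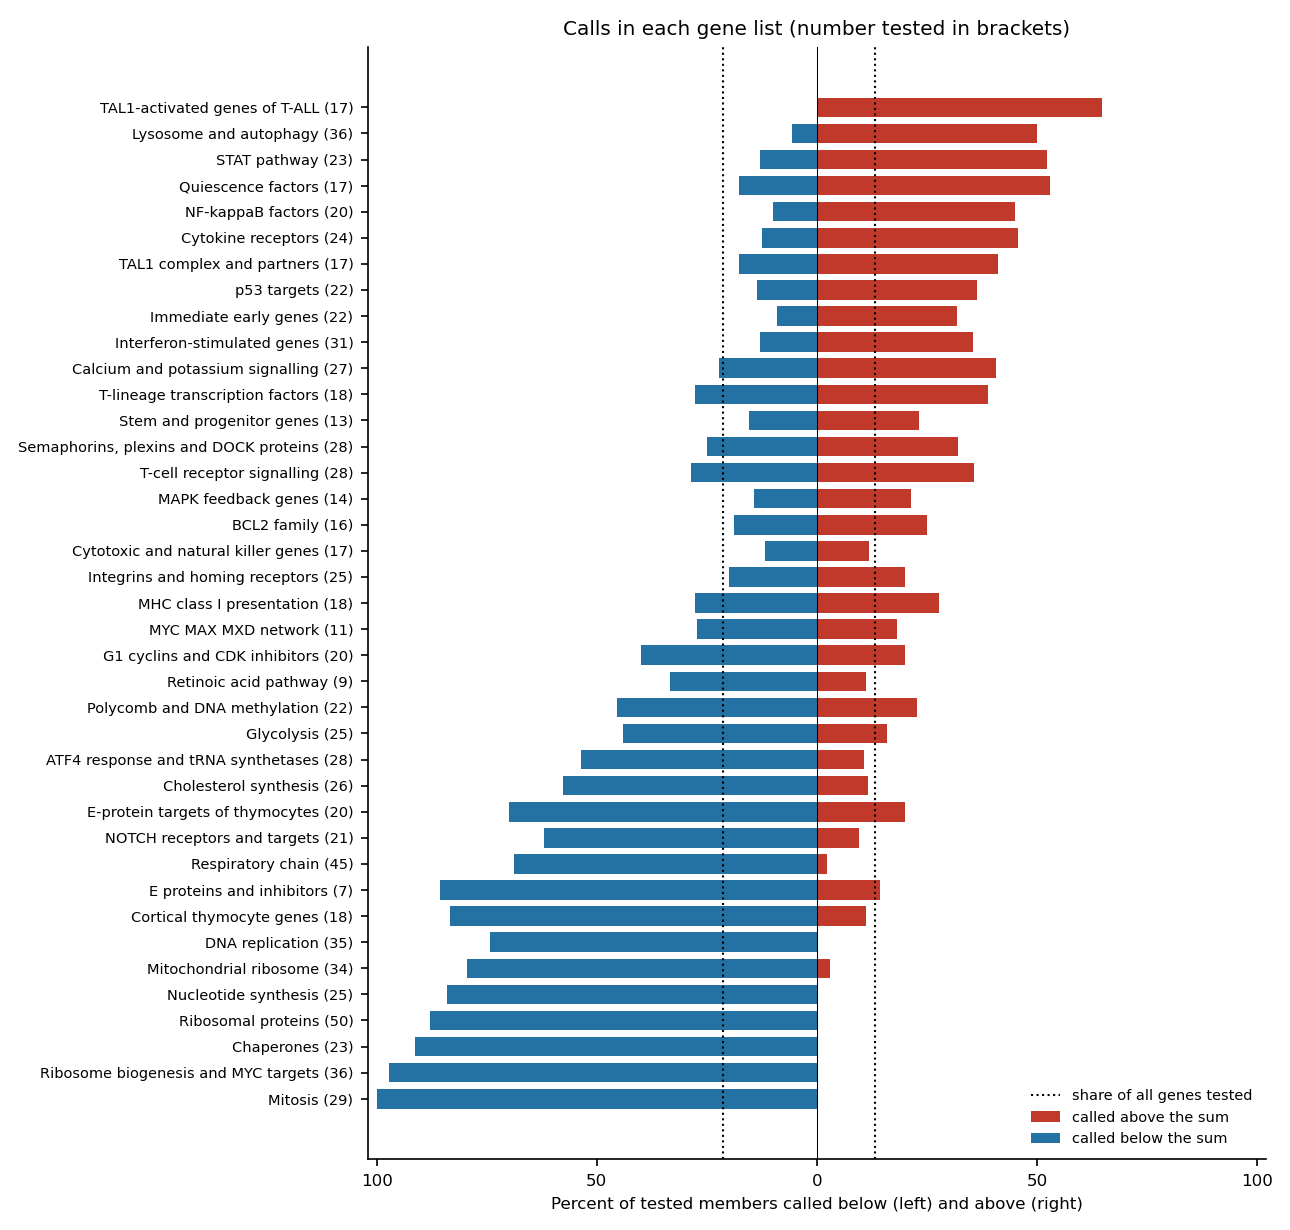
Bars give the percent of tested members of each gene list with at least 7 tested members that were called above the sum (right) and below it (left), and dotted lines mark the 13.3% and 21.4% of all genes tested. All 29 mitosis genes and 35 of 36 nucleolar and MYC target genes were below, and 11 of 17 TAL1-activated genes were above.

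Within T-cell identity and receptor signalling the departures went both ways. Of 28 tested genes of receptor signalling, 10 were above and 8 below. The adaptor LCP2 departed by 2.23 (SE 0.11) and the costimulatory receptor CD28 by 1.26 (SE 0.084), while the CD3 chains CD3E and CD247 departed by -2.04 (SE 0.092) and -1.34 (SE 0.083). CD3E was between 404 and 691 CPM in the 10 other libraries and at 89.7 and 98.8 CPM in the induced TAL1/LMO1 line. Of 18 T-lineage transcription factors, 7 were above and 5 below. TOX2 departed by 2.52 (SE 0.13) with a TAL1 response of 0.90, TCF7 by 0.70 (SE 0.071) and BCL11A by -1.001 (SE 0.14). The median departure of these lists changed sign with the setting, so no direction is given for either.

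The GIMAP GTPases of lymphocytes show how the choice of reference bears on a list. None of 4 tested members was called in edgeR's test. Their median responses were 0.78 in the TAL1 line, 0.87 in the LMO1 line and 1.121 in the TAL1/LMO1 line, so the median departure from the sum was -0.82, while the median difference from the mean of the single responses was 0.11. GIMAP6 and GIMAP7 had departures of -1.44 (SE 0.94) and -1.18 (SE 1.07). The members had few counts, and without the 1 member with 3 or fewer counts in a group the median was -0.45.

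Several genes had few or no counts in some group, and their levels are given in place of a departure. TFPI, an inhibitor of coagulation, was at 0 and 0.129 CPM (DMSO) and 0 and 0 CPM (DOX) in the TAL1 line, 1.11 and 0.847 CPM (DMSO) and 1.72 and 1.95 CPM (DOX) in the LMO1 line, and 0 and 0.129 CPM in the TAL1/LMO1 line with DMSO. With doxycycline the TAL1/LMO1 line had at least 18.7 CPM in each library. SEMA4A, a semaphorin, was at most 1.93 CPM in 10 libraries and at 159 and 166 CPM in the induced TAL1/LMO1 line. ANXA1, an anti-inflammatory annexin, was at 19.5 and 20.9 CPM (DMSO) and 11.5 and 12.9 CPM (DOX) in the LMO1 line, 0.5899 and 0.777 CPM (DMSO) and 1.702 and 1.52 CPM (DOX) in the TAL1 line and 1.41 and 1.87 CPM in the TAL1/LMO1 line with DMSO, and had 0 counts with doxycycline, where 3 counts equal at most 0.186 CPM. FAM196A, which lies within DOCK1, also had 0 counts there, against 2.07 to 7.08 CPM in the 10 others. The CRTAM, TFPI and CHI3L2 calls above the sum each ended when 1 DMSO library was left out, of the LMO1 line (replicate 1), the TAL1 line (replicate 2) and the LMO1 line (replicate 2).

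Noncoding genes with the smallest p included the snoRNA host genes SNHG1, SNHG3 and SNHG16 and the long noncoding RNA DANCR below the sum, at -1.35 (SE 0.097), -1.48 (SE 0.10), -1.91 (SE 0.16) and -1.65 (SE 0.11). Above it were HHIP-AS1 at 2.92, LINC00648 at 2.16, the nuclear RNA NEAT1 at 1.28 and BZRAP1-AS1 at 1.25. The libraries were made with strand information, but the sources used here do not give the setting used for counting, so antisense genes are uncertain.

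Departures of neighbouring genes often had the same direction. Of 8749 pairs of tested coding genes that are adjacent in the RefSeq order, 101 had a departure of at least 1 called in both genes, and in 82 of these (81.2%) both lay on the same side, 42 above and 40 below. Among all coding genes matched, 3.95% were above and 4.31% below by that measure. DNTT and OPALIN were such a pair below the sum, RAG1 and RAG2 another, and DOCK1 with FAM196A also. Above it were TXK with TEC, ITGA4 with CERKL, and the run of STAT5A and STAT3 beside STAT5B. RAG1, which has no place in the rule for named genes, departed by -3.22 (SE 0.43) and RAG2 by -3.77. Where genes overlap, reads of one can be counted for the other, and its part in these pairs was not tested.

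The whole series bears on these values in a few respects. Library totals lay between 14865073 and 15917713 counts. All 13 T-cell markers were detected in all 12 libraries, with summed levels of 2301 to 3896 CPM, lowest in the TAL1/LMO1 line with doxycycline, where 8 of the 13 (CD3E, CD3G, CD2, CD4, CD8B, CD1A, PTCRA and DNTT) were below the sum, 2 (CD5 and CD8A) above and 3 (CD3D, CD7 and LCK) not called. Over all genes tested, 21.4% were below the sum and 13.3% above. All 8 myeloid markers and all 7 erythroid markers were under 1 CPM in each library, as were 7 of 8 stromal or epithelial and 4 of 6 B-cell markers. Taking the mean of the single responses as reference, which cancels a change that doxycycline makes in every line, kept 2158 of the 2172 genes above and 3443 of the 3483 genes below. That reference shares the TAL1/LMO1 response and all libraries with the departure. Neither single response was called for 96.3% of the genes tested, so most calls could hardly change. A response to doxycycline itself was not tested.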

How the data were processed

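Total RNA was sequenced from strand-specific paired-end libraries, per the labels' protocols. The authors deposited 1 table of raw counts per gene for the 12 libraries (63677 genes, of which 29971 had 0 counts in every library). Alignment and counting tools are listed in the submitters' processing notes as STAR 2.5.2a, featureCounts and DESeq2 1.12.4, with the build hg19 and no parameters. Groups were taken from the sample titles.

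Genes were filtered with filterByExpr over the 6 groups, scaled by TMM and fitted with edgeR 4.0.16 (robust quasi-likelihood, R 4.3.3, limma 3.58.1), 1 mean per group and no covariate, on 6 residual degrees of freedom. The departure was 1 contrast of the 6 group means, with Benjamini-Hochberg adjustment over the 16287 genes tested. The SE is the size of the effect divided by the square root of F, or the counting error where that is larger. The fit was tested on simulated data.

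Library totals of 14865073 to 15917713 counts make 3 counts, the limit that a count of 0 allows, at most 0.198 CPM. Limits and intervals of counts cover counting error only. Replicates of each group differed beyond counting noise and were kept apart. Deviations of same-numbered libraries correlated above 0.1 in 6 of 15 pairs of groups and not in the others. The main fit did not take the numbers as pairs, and a fit with a replicate block was an alternative.

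Named genes were TAL1 and LMO1, then the 15 largest departures per direction among called genes with at least 10 counts in every group and at least 2 CPM in 1 group (noncoding genes, antisense genes and pseudogenes left out), up to 5 called genes per direction with fewer counts, up to 4 genes with the smallest p per list, up to 4 per class and direction with a departure of at least 0.5, and up to 4 noncoding genes per direction. Genes named for having both single responses called or a response short of the sum, and RAG1, GIMAP6 and GIMAP7, were chosen outside this rule after their values were seen. The comparison, the 44 gene lists and the markers were chosen with earlier results of these data known, and the list counts are descriptions with no test of their own. Alternatives covered scaling by total counts or by DESeq2 1.42.0 size factors, DESeq2, limma-voom, other filters, a replicate block, leaving out the transgenes or 1 library, other references and the linear scale. Gene types are from GENCODE, and promoter sequences and gene order are from RefSeq (GRCh38.p14). Of 12243 coding genes, 12112 were matched, by Ensembl identifier or, where that failed, by symbol or synonym. Genes on the Y chromosome were not described, and some results are not reported here.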

Additional observations from a re-analysis of the deposited data

Results flagged for a closer look

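The responses of the lines to doxycycline differed by a test of the difference itself. In edgeR's quasi-likelihood test with Benjamini-Hochberg adjustment, the TAL1/LMO1 response differed from the TAL1 response for 7137 genes and from the LMO1 response for 7400 genes. The TAL1 and LMO1 responses differed from each other for 153 genes. These comparisons share libraries. Among the genes with both single responses called, the TAL1 response minus the LMO1 response was 0.556 for JARID2 (adjusted p = 1.28e-07), -0.406 for SLC29A1 (adjusted p = 1.18e-06) and -0.548 for NOTCH3 (adjusted p = 1.24e-09).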

How the results depend on the processing

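Counts of genes above and below the sum stayed within 1.5 times those reported under each other fit and filter tried, with 1 exception. With the mean of the single responses as reference in place of their sum, 3460 genes were above and 4556 below. A difference called from each single response gave 2462 above and 3732 below. Other fits of the departure gave 1719 (DESeq2) to 2496 (total counts) above and 2598 (DESeq2) to 3594 (replicate block) below. With 1 library left out, 1784 to 2013 genes were above and 3212 to 3505 below, and 559 to 640 and 728 to 819 with a departure of at least 1. With a replicate block, 2239 genes were above and 3594 below (643 and 760 with a departure of at least 1), and no named gene changed its call. The correlation of same-numbered libraries ran from -0.115 to 0.198 over 15 pairs of groups, above 0.1 in 6 and below -0.1 in 1. The column names number all libraries of the first replicate before all those of the second. Whether same-numbered libraries were handled together is not stated, and the main fit did not block on the number.

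Of 192 named genes with a call, 186 kept it with each of the 12 libraries left out in turn. TFPI, CRTAM and CHI3L2 each lost it without 1 DMSO library, DUSP7 without 1 TAL1/LMO1 doxycycline library, DUSP10 without any of 4 libraries and DUSP6 without any of 6. DESeq2 also made no call for the 3 DUSP genes. All 40 departures called among genes with both single responses called kept their call with each library left out, against 5 of the 25 genes short of the sum. No called direction reversed. The median departure of 7 of 44 lists changed sign under some setting, those of T-cell receptor signalling, T-lineage factors, MHC class I, GIMAP, cytotoxic, erythroid and B-cell genes, none of them under another scaling.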

Other observations

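Stress, metabolic and immune lists not described above went both ways. Of 28 tested ATF4 targets and tRNA synthetases 15 were below the sum and 3 above (median -0.26), of 26 cholesterol synthesis genes 15 and 3 (median -0.35), of 25 glycolysis genes 11 and 4 (median -0.19) and of 22 Polycomb and DNA methylation genes 10 and 5 (median -0.17), against 21.4% below and 13.3% above over all genes. Of 31 interferon-stimulated genes 11 were above and 4 below (median 0.28), of 22 p53 targets 8 and 3 (median 0.24), of 22 immediate early genes 7 and 2 (median 0.41) and of 28 semaphorins, plexins and DOCK proteins 9 and 7 (median 0.19). MHC class I presentation had 5 above and 5 below of 18, integrins and homing receptors 5 and 5 of 25, BCL2 family genes 4 and 3 of 16 and MAPK feedback genes 3 and 2 of 14. G1 cyclins and CDK inhibitors had 8 below and 4 above of 20 (median -0.12). The MYC, MAX and MXD genes had 3 below and 2 above of 11 (median -0.09).

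In the MAPK list, DUSP6, a phosphatase that limits ERK, had a TAL1 response of 1.09 and a departure of 1.06 (SE 0.39, edgeR adjusted p = 0.0285), and this call ended when any of 6 single libraries was left out. HEMGN, an erythroid gene, departed by 2.02 (SE 0.55), with values from 1.57 to 2.65 when 1 library was left out. RXRA, a partner of retinoic acid receptors, departed by -0.85 (SE 0.21), with values from -1.10 to -0.66. Of 9 tested retinoic acid pathway genes, 3 were below and 1, ALDH1A2, was above, against 21.4% below and 13.3% above over all genes.

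Of 41 tested segments of T-cell receptor and immunoglobulin genes, 7 were above the sum (17.1%) and 11 below (26.8%). These shares were near the 13.3% and 21.4% of all genes tested. In the gamma receptor locus TRGV3, TRGC1 and TRGC2 had both single responses called, positive in the TAL1 line (0.28, 0.62 and 0.49), negative in the LMO1 line (-0.53, -0.57 and -0.41) and positive in the TAL1/LMO1 line (0.99, 1.05 and 0.999). All 3 were called above the sum and were named after their values were seen. These segments resemble one another, so how their reads were divided is uncertain. CFTR, a chloride channel, had the largest TAL1 response of the 48 genes with both single responses called, 1.32, with -0.47 in the LMO1 line and -0.76 in the TAL1/LMO1 line. It was at 6.82 and 6.08 CPM with DMSO and 19.5 and 12.8 CPM with doxycycline in the TAL1 line, against 807 and 774 CPM with DMSO in the LMO1 line, so the LMO1-line share of 1.53% in the replicate 1 doxycycline library bears on it. With that share taken out, the departure moved from -1.61 to -1.07 (edgeR adjusted p = 5.63e-09). ARPP21, a phosphoprotein of thymocytes and brain, had -0.35, 0.41 and -3.29, the largest departure of the 48 (-3.35).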
